A study of Mus musculus with 16 samples.

Results

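The enzymes of heme synthesis were followed in 16 left lungs of Balb/c mice aged 23 weeks. They were represented by 19 probe sets of 8 genes, Alas1, Alas2, Alad, Uros, Urod, Cpox, Ppox and Fech, out of 45037 probe sets that named 18193 genes. A probe set was taken when the platform annotation gave it exactly 1 symbol and that symbol, or a RefSeq synonym of it, was one of the 8. The lungs formed 4 groups of 4: females after second-hand smoke (SHS) in utero, females after filtered air, males after SHS in utero, and males after filtered air. SHS was given as sidestream smoke with a particle load of 10 mg/m3, 7 days a week for 5 h on each day. Each of the 4 groups, the air groups included, received ovalbumin (OVA), an egg protein used as an allergen, by injection and later by aerosol, so no comparison was free of allergen challenge. Sexes were never compared with each other, and every difference is SHS minus air within 1 sex, on the log2 scale, unless it is said to be averaged over the sexes or a difference between them.

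Heme is an iron porphyrin that carries oxygen in hemoglobin and serves as the working group of cytochromes, catalase and many oxidases. Its synthesis starts in mitochondria, where an aminolevulinate synthase joins glycine and succinyl-CoA, runs through the cytosol, and ends in mitochondria with the insertion of iron. Alas1 is the synthase of most tissues, is rate limiting and is held down by heme itself, whereas Alas2 is the synthase of red cell precursors. In a lung, transcripts of Alas2 can come from blood left in the vessels.

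Alad, the second enzyme of the pathway, was lower after SHS in most arrays, but 1 air female and 1 SHS male did not go with their groups, and the gene next to Alad on chromosome 4, Hdhd3, split the same arrays. One of 4 Fech probe sets, 1449181_at, was lower after SHS in males, and 2 of 3 Cpox probe sets were higher after SHS when the sexes were averaged. Alas2 followed the globin gene Hbb-b2 from array to array and showed no called difference. Uros, Urod and Ppox gave no call in either sex.

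Promoter sequences are shown for 3 genes whose values moved together with those of another gene: Alad and Hdhd3, which split the same arrays, and Alas2, which followed a globin gene. Each is the 250 bases before an annotated start, read 5′ to 3′ on the gene's own strand, from RefSeq on GRCm38.p6. Capitals mark every match, on either strand, to one of 7 short motifs. The motif searched for GATA factors, regulators of red cell genes, was AGATAA. For NRF1, a regulator of mitochondrial genes, the core of its site was searched as TGCGCA. The antioxidant response motif bound by Nfe2l2 was written TGANNNNGC, and the xenobiotic response motif bound by the aryl hydrocarbon receptor was written GCGTG. The E-box of clock and Myc factors was CACGTG, the site of the receptors Rev-erb and ROR was AGGTCA, and the site of Klf factors was CACCC.
Alad, chr4:62520064-62520313, minus strand: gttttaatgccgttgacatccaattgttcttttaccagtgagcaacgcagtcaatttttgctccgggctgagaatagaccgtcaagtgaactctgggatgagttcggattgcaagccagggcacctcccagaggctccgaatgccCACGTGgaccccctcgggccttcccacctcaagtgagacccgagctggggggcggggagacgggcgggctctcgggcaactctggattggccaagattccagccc
Hdhd3, chr4:62502201-62502450, minus strand: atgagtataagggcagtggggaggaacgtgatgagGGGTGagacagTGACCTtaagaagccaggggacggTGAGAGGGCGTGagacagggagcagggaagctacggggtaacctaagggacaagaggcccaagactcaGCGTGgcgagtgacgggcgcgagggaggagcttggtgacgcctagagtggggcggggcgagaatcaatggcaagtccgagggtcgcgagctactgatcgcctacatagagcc
Alas2, chrX:150547167-150547416, plus strand: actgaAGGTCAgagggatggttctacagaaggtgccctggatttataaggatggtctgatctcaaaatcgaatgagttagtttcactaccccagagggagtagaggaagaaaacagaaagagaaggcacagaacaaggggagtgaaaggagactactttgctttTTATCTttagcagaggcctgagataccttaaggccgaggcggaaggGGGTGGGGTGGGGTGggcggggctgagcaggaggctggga
RefSeq lists 2 starts for Alad, and the window shown is that of the outer one. It held 1 match, an E-box that began at position -105 from the start, a motif present in 6.02% of 32851 RefSeq promoter windows of the same length. The window of the other start, chr4:62519910-62520159, overlaps it and held a xenobiotic response match from -148, an E-box from -28 and a CACCC match on the reverse strand from -47. The Hdhd3 window held an antioxidant response match from -180 that overlapped a xenobiotic response match from -173, another xenobiotic response match from -112, an AGGTCA match from -204 and a CACCC match from -215. These motifs were present in 35.2% (antioxidant response), 28.2% (xenobiotic response), 14% (AGGTCA) and 52% (CACCC) of all windows. The Alas2 window held a GATA match on the reverse strand from -86 to -81, a motif present in 9.99% of windows, an AGGTCA match from -245, and 3 CACCC matches on the reverse strand between -40 and -26. The motif matches are descriptions of letters, and binding was not measured here.

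Lung identity was clear in every group. Markers of club cells, the secretory cells of the airways, averaged 13.2 to 13.6 in SHS females, 13.7 to 13.9 in air females, 13.2 to 13.5 in SHS males and 13.5 to 13.7 in air males, against a median of 7.02 over all probe-set means. Across the probe sets above the 40th percentile of mean value (6.38), arrays of 1 sex correlated at 0.976 to 0.997. Of the 19 probe sets, 4 lay below that percentile and are called low here: Cpox 1440747_at, Ppox 1448065_at, Ppox 1441862_at and Fech 1427696_at. Each lung came from a different mouse per the labels, and no litter was named for any mouse. An adjusted p therefore rests on the spread between mice that may be siblings, and the spread between litters could not be estimated. The 4 arrays per group limited the precision.

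The gene set was chosen by the measured difference of Alad in females, which was lower after SHS, so Alad in females, and every value averaged over the sexes or set between them, is given for Alad as a description with no test. Without Alad, 0 of the other 17 probe sets were called in females by limma at an adjusted p under 0.05, where 2.87% of all 45037 probe sets were called. At an unadjusted p under 0.05 there were 4. Both Alas1 probe sets were lower, against a background of 6.16%, and 2 Cpox probe sets were higher, against 9.88%. In males 1 of 19 was called, the Fech probe set with lower values, against 5.18% of all probe sets in either direction and 2.11% lower after SHS, and 4 of 19 passed an unadjusted p under 0.05, against 20.2%. Averaged over the sexes, 3 of 17 were called, 2 higher after SHS, against 6.65%, and 1 lower, against 3.67%. By limma, 0 of 17 probe sets, and 0 (0%) of all 45037, were called for a difference between the sexes in the effect of SHS. At an unadjusted p under 0.05, 3 of 17 passed that test, Fech 1449181_at and the low probe sets Cpox 1440747_at and Fech 1427696_at, against a background of 8.24%.

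Within each sex the shares of members called thus lay near those of the whole array. Averaged over the sexes they lay above those of the whole array, on few calls. The members were chosen with earlier results of these data known, so these shares are a description. The median difference of the 17 probe sets was -0.12 in females, where the median of all probe sets was -0.0086, and that of all 19 was -0.05 in males, where it was -0.0021. Without Alad, 12 of 17 differences were below 0 in females and 8 of 17 in males. The groups did not overlap for 2 of 17 probe sets in females, Alas1 1424126_at below air and Cpox 1422492_at above it, and the background was 8.25%. In males they did not overlap for 2 of 19, Fech 1449181_at below air and Cpox 1422493_at above it, with a background of 15.4%.

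**Figure D1:**
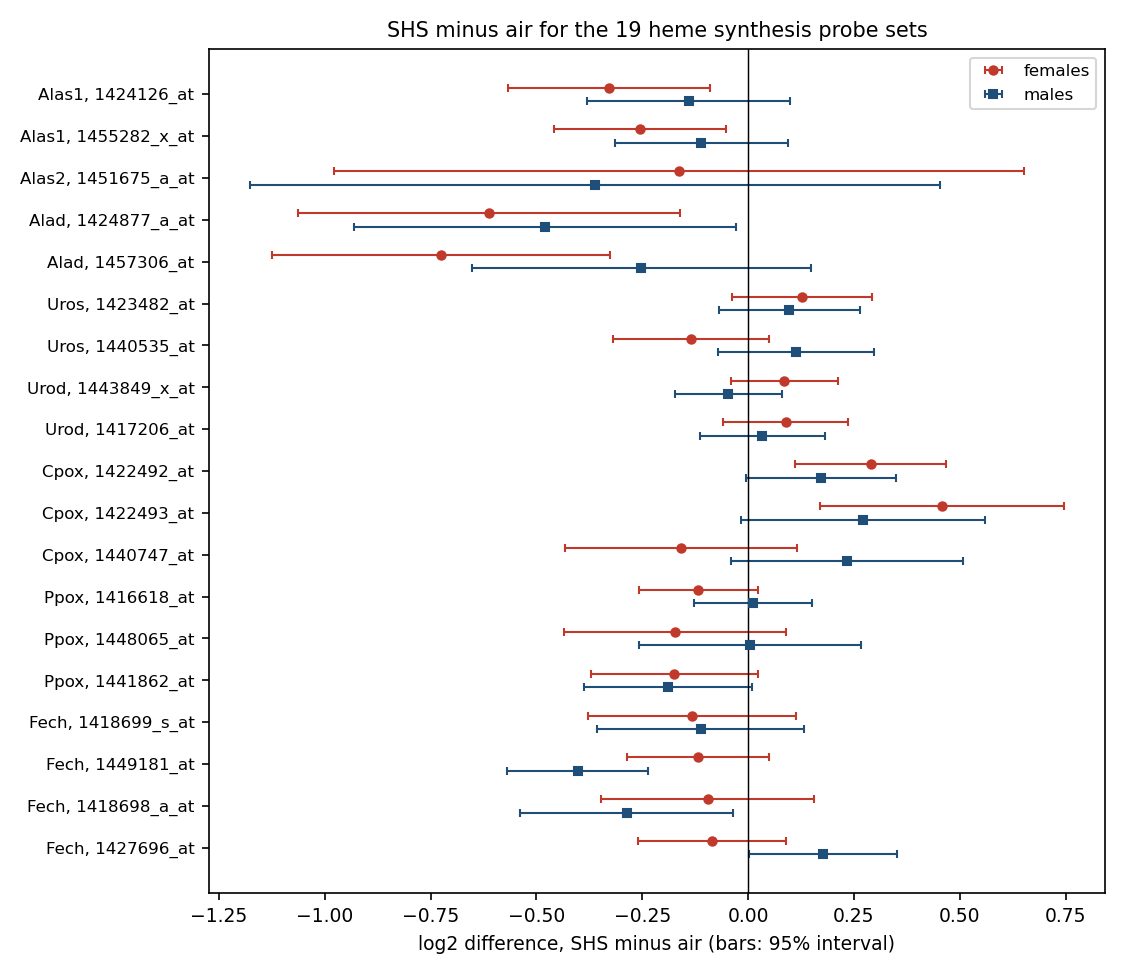
Log2 difference, SHS minus air, of the 19 heme synthesis probe sets in females (circles) and males (squares), with 95% intervals of the limma fit as bars. The Alad points lie furthest to the left in females, at -0.61 and -0.73, Fech 1449181_at lies at -0.40 in males, and the intervals of Alas2 are the widest.

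Alas1 (chromosome 9, 106233455 to 106247954, GRCm38.p6) encodes the rate-limiting synthase. Probe set 1424126_at read 11.82, 11.93, 11.86 and 11.99 in SHS females, against 12.24, 12.29, 12.12 and 12.26 in air females. Every SHS female lay below every air female. The difference was -0.33 ± 0.11 (SE, n = 4 each), or 79.6% of the air level on the linear scale, with an adjusted p of 0.138, so it did not pass the test. The other Alas1 probe set, 1455282_x_at, differed by -0.26 in females (adjusted p = 0.184), with overlapping groups.

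In males, Alas1 1424126_at read 10.92, 10.87, 11.11 and 11.35 after SHS, against 10.99, 10.98, 11.43 and 11.40 after air. The male groups overlapped, with a difference of -0.14 ± 0.11 (adjusted p = 0.534). Averaged over the sexes the difference was -0.23, with a 95% interval of -0.40 to -0.07 and an adjusted p of 0.0725. This averaged value was called under 5 other settings, quantile normalization, array weights, a trended and robust prior, the replicate number as a block, and the fit without low probe sets, with adjusted p between 0.0149 and 0.0488. It was also called without air male replicate 1 (0.0465), without air male replicate 2 (0.0402) and without SHS male replicate 4 (0.0207).

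Alas2 (chromosome X, 150547417 to 150570622), the red cell synthase, varied most from array to array. It read 10.26, 10.42, 8.58 and 10.58 in SHS females, against 9.85, 10.41, 10.70 and 9.52 in air females. SHS female replicate 3 lay far below every other female, and the groups overlapped. In males it read 8.11, 8.03, 8.14 and 9.50 after SHS, against 8.76, 8.61, 9.21 and 8.65 after air. Of the SHS males, 3 lay below every air male and replicate 4 lay above all of them. The differences were -0.16 ± 0.39 in females (SE, adjusted p = 0.892) and -0.36 ± 0.39 in males (adjusted p = 0.663). The 95% interval in females ran from -0.98 to 0.65, and the value in females changed sign to 0.30 without SHS female replicate 3 and to 0.03 without air female replicate 3.

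The same arrays stood out for Hbb-b2, a beta globin chain of hemoglobin. Hbb-b2 read 8.09, 8.95, 6.55 and 8.62 in SHS females, against 8.20, 8.95, 8.94 and 7.75 in air females. It read 7.62, 7.75, 8.06 and 9.02 in SHS males, against 8.32, 8.50, 9.27 and 8.16 in air males. SHS female replicate 3, lowest for Alas2, was lowest of the females for Hbb-b2, and SHS male replicate 4, highest for Alas2, was highest of the SHS males for Hbb-b2.

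Likeness was compared among 11396 genes with a probe set averaging more than 7.02, the median level given above. Of these, Hbb-b2 was the most like Alas2, with a Pearson r of 0.94 over 16 arrays. Each sex was first centred on its own mean. Fech 1418699_s_at came next (0.93), then Slc25a37, the mitoferrin that brings iron into the mitochondria of red cell precursors (0.90), BC029722 (0.88) and Isca1, an iron-sulfur cluster assembly protein (0.88). These are descriptions of 16 arrays that share tissue, handling and scaling. Of the other members, Fech 1418698_a_at had an r of 0.81 with Alas2, whereas Fech 1449181_at had 0.37 and Alad 0.10.

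Within each sex, the highest probe set of each of the 8 genes was set against the mean of 20 red cell markers that left out Alas2. This gave 16 relations tested by exact permutation and adjusted by Benjamini-Hochberg. SHS and air arrays were pooled and permuted together, so a difference between SHS and air shared by a gene and the markers can enter a relation. Only 2 were called, both in males. Alas2 in males had a Pearson r of 0.91 (n = 8, exact permutation p = 0.00139, adjusted p = 0.0222) and a Spearman rho of 0.81 (exact permutation p = 0.0218, adjusted p = 0.174). Without the 2 arrays farthest from the median of the marker mean, r was 0.66. Fech 1418699_s_at in males had an r of 0.86 (n = 8, exact permutation p = 0.00521, adjusted p = 0.0417), a rho of 0.81 (exact permutation p = 0.0218, adjusted p = 0.174) and an r of 0.54 without those 2 arrays. Both relations thus rested in part on the arrays with the most extreme marker means.

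In females the r was 0.71 for Alas2 (n = 8, exact permutation p = 0.0429, adjusted p = 0.137), with a rho of 0.55 (exact permutation p = 0.171, adjusted p = 0.274) and an r of 0.27 without the 2 farthest arrays. It was 0.77 for Fech 1418699_s_at (exact permutation p = 0.0232, adjusted p = 0.113), with a rho of 0.74 (exact permutation p = 0.0458, adjusted p = 0.183) and an r of 0.47 without them. The 3 hemoglobin probe sets were also taken alone in place of the list. Of these, Hbb-b2 was not low, whereas Hba-a1 and Hba-a2 were low. With them Alas2 was called in both sexes, at an r of 0.92 in females and 0.88 in males (exact permutation, adjusted p = 0.0261 each). Fech 1418699_s_at was then called in females (r = 0.92, exact permutation, adjusted p = 0.00833) and missed the threshold in males (r = 0.80, exact permutation, adjusted p = 0.059).

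Of 28 red cell markers, Alas2 among them, 21 were measured and 12 of these were low. By limma 0 were called in females, where 2.87% of all probe sets were called, and 0 in males, where 5.18% were. At an unadjusted p under 0.05 there was 1 of 21 in females, against a background of 16%, and 3 of 21 in males, against 20.2%. The markers' median difference was -0.10 in females and -0.0083 in males, against 0.0003 and 0.0084 over all genes. Ahsp was not measured here, Hemgn (3.49 to 4.18) and Klf1 (5.74 to 6.35) were low on every array, and Slc4a1, the band 3 anion exchanger of the red cell membrane, ran from 7.11 to 8.26. The log2 of the markers' summed level ranged from 11.2 to 12.0 in SHS females, 11.5 to 12.2 in air females, 11.3 to 11.8 in SHS males and 11.3 to 11.8 in air males. In whole lung, any difference in red cell precursors or in blood cannot be told apart from a difference in RNA per cell.

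**Figure D2:**
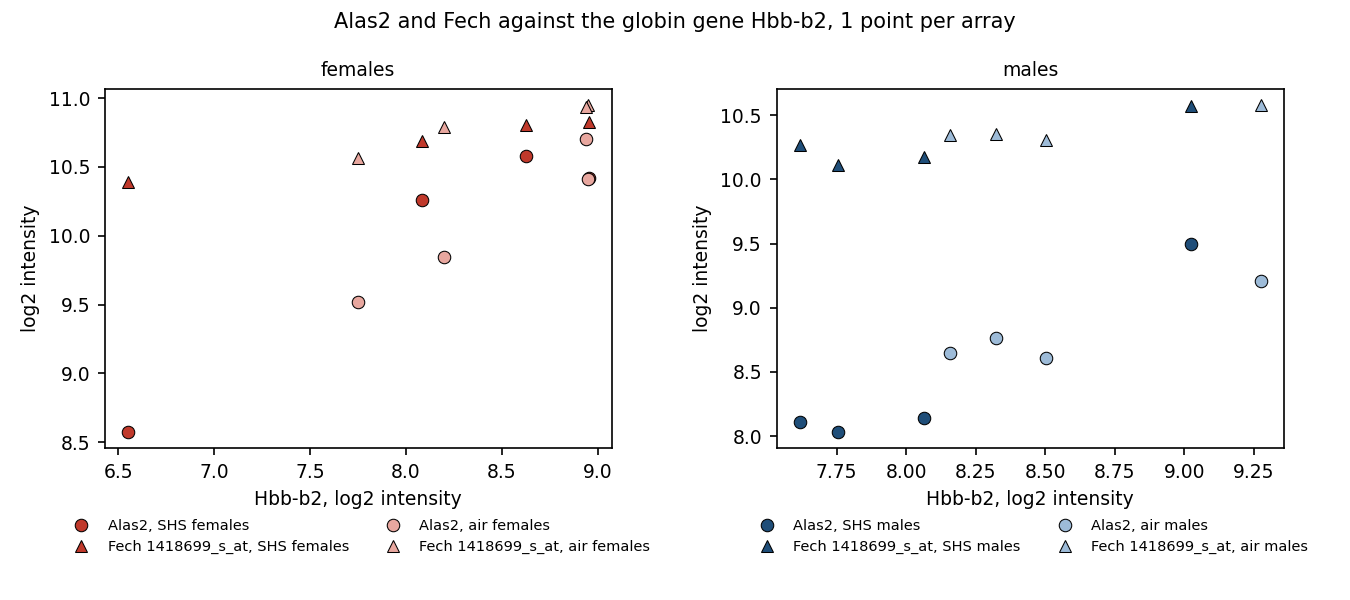
Log2 intensity of Alas2 (circles) and Fech 1418699_s_at (triangles) against that of the globin gene Hbb-b2, with 1 point per array, females left and males right, SHS dark and air light. Both genes rise with Hbb-b2 in each panel, and SHS female replicate 3, at 6.55 for Hbb-b2 and 8.58 for Alas2, is the point at the lower left of the female panel.

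Alad (chromosome 4, 62505984 to 62520063, minus strand) encodes aminolevulinate dehydratase, a zinc enzyme that joins aminolevulinate molecules into porphobilinogen and is known for its sensitivity to lead. Probe set 1424877_a_at read 9.79, 10.02, 9.87 and 9.76 in SHS females, against 9.77, 10.75, 10.63 and 10.74 in air females. All 4 SHS females and air female replicate 1 lay near 9.8, and the other 3 air females lay above 10.6. In males the probe set read 9.65, 9.58, 10.62 and 9.55 after SHS, against 10.34, 10.33, 10.39 and 10.27 after air. SHS male replicate 3 stood above every air male, and the other 3 SHS males stood below all of them.

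The same arrays lay at the edge of their groups on the other Alad probe set, 1457306_at. It read 7.61, 7.40, 7.58 and 7.58 in SHS females, against 7.66, 8.37, 8.40 and 8.65 in air females. It read 7.43, 7.62, 8.34 and 7.59 in SHS males, against 7.75, 8.06, 7.96 and 8.23 in air males. Air female replicate 1 was the lowest of the air females and SHS male replicate 3 the highest of all males. Air female replicate 1 still lay just above every SHS female, so the female groups did not overlap on this probe set. Over the 16 arrays, each sex centred on its own mean, the probe sets correlated at 0.89.

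The difference in females was -0.61 ± 0.21 on 1424877_a_at and -0.73 ± 0.19 on 1457306_at (SE, n = 4 each), or 65.4% and 60.5% of the air level on the linear scale. In males it was -0.48 ± 0.21 (adjusted p = 0.216) and -0.25 ± 0.19 (adjusted p = 0.500), and neither passed the test. The spread within groups was uneven. The SD of 1424877_a_at was 0.12 in SHS females, 0.47 in air females, 0.52 in SHS males and 0.05 in air males.

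A single array set the spread in air females and another in SHS males. On 1424877_a_at, air female replicate 1 lay 0.94 below the mean of the other 3 air females (value minus mean -0.94), and SHS male replicate 3 lay 1.03 above the mean of the other 3 SHS males. On 1457306_at these steps were -0.81 and 0.79. Without air female replicate 1 the difference in females was -0.85 and -0.93 on the 2 probe sets. Without SHS male replicate 3 the difference in males was -0.74 and -0.45. These arrays were singled out by their Alad values, so the values without them are a description with no test.

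**Figure D3:**
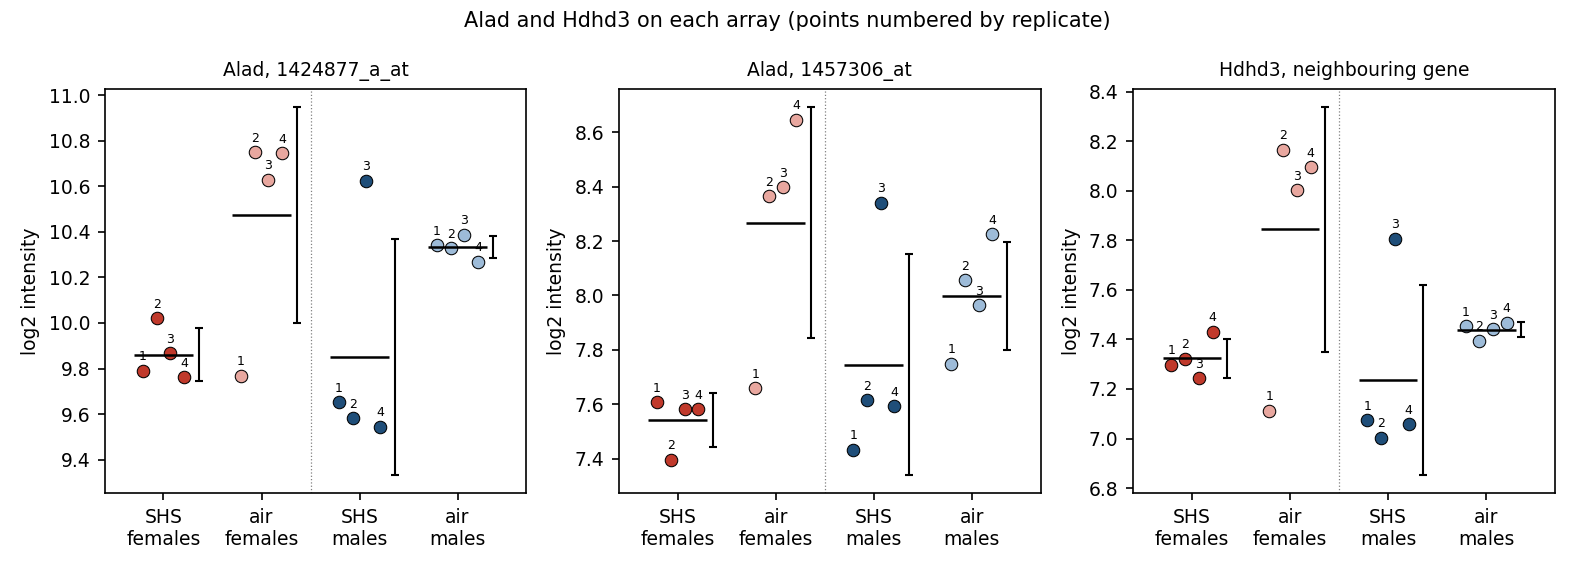
Log2 intensity of both Alad probe sets and of the neighbouring gene Hdhd3 on each array, numbered by replicate, with group means as lines and SDs as bars, n = 4 per group. Air female replicate 1 lies with the SHS females, and SHS male replicate 3 lies above the other SHS males, in all 3 panels.

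**Figure D4:**
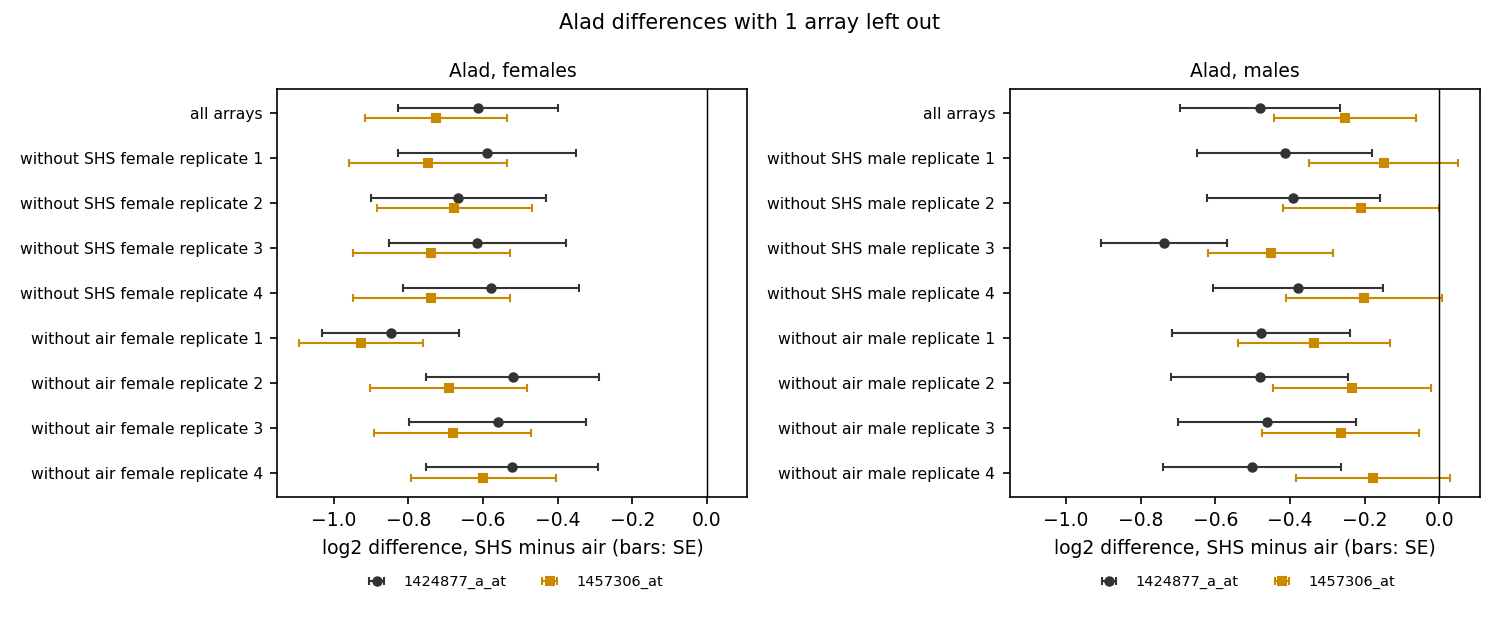
Log2 difference of Alad, SHS minus air, with all arrays and with each array of that sex left out in turn, for 1424877_a_at (circles) and 1457306_at (squares), bars SE. The values stay below 0 throughout and lie furthest from 0 without air female replicate 1 in females (-0.85 and -0.93) and without SHS male replicate 3 in males (-0.74 and -0.45).

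Hdhd3 (chromosome 4, 62499054 to 62502200, minus strand), a gene for a protein of the haloacid dehalogenase-like hydrolase family, lies 3783 bases from Alad and was the gene most like it of 11396 compared. Hdhd3 1425343_at read 7.30, 7.32, 7.24 and 7.43 in SHS females, against 7.11, 8.17, 8.001 and 8.10 in air females. It read 7.07, 7.00, 7.81 and 7.06 in SHS males, against 7.45, 7.39, 7.44 and 7.47 in air males. Air female replicate 1 was the lowest of the females, at 0.98 below the mean of the other 3 air females (value minus mean -0.98), and SHS male replicate 3 was again the highest male, at 0.76 above the mean of the other 3 SHS males.

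The r of Hdhd3 with Alad 1424877_a_at was 0.95 over 16 arrays with each sex centred on its mean, and 0.95 with each of the 4 groups centred on its own. The next genes were Met, the hepatocyte growth factor receptor (0.78), Adh7, an alcohol and retinol dehydrogenase (0.78), Gpam, a glycerol phosphate acyltransferase (0.78), and Kcnj13, a potassium channel (0.78). With groups centred, the r of these 4 was between 0.55 and 0.68. The other 5 measured neighbours of Alad did not follow it. Wdr31, Bspry, Pole3, 4933430I17Rik and Rgs3 had an r with Alad between -0.46 and 0.48, although Pole3 lies only 3734 bases away on the other side.

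Hdhd3 was picked for its likeness to Alad, so its differences are a description with no test. They were -0.52 in females and -0.20 in males with all arrays. Without air female replicate 1 the difference in females was -0.76, and without SHS male replicate 3 the difference in males was -0.39.

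On both arrays, Alad and Hdhd3 went against the SHS and air labels, so a lower level after SHS describes the group means of these genes and not every mouse. Not every gene did so. For Tfrc, the transferrin receptor, air female replicate 1 read 10.80, where the SHS females lay between 11.31 and 11.71, and SHS male replicate 3 read 11.70, where the air males lay between 11.05 and 11.34. Tfrc was named for its difference between SHS and air, and genomic DNA was not measured here. What set these arrays apart at Alad and Hdhd3 was not tested.

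Uros (chromosome 7, 133686142 to 133710467) closes the porphyrin ring as uroporphyrinogen III synthase, and Urod (chromosome 4, 116989965 to 116994436) removes carboxyl groups from its product. Uros 1423482_at read 8.72, 8.80, 8.87 and 8.48 in SHS females, against 8.59, 8.48, 8.67 and 8.61 in air females, and the groups overlapped. Its difference was 0.13 in females (95% interval -0.04 to 0.29, adjusted p = 0.469) and 0.10 in males (-0.07 to 0.26, adjusted p = 0.537). The other Uros probe set, 1440535_at, had a difference of the opposite sign in females (-0.14, adjusted p = 0.493). Urod, whose 1443849_x_at ranged from 10.08 to 10.52 over all 16 arrays, had the narrowest intervals. Its difference was 0.09 in females (95% interval -0.04 to 0.21) and -0.05 in males (-0.17 to 0.08), and on 1417206_at it was 0.09 and 0.03.

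Cpox (chromosome 16, 58670208 to 58680391) encodes coproporphyrinogen oxidase, the enzyme that takes the pathway back into mitochondria. Cpox 1422492_at read 8.06, 7.99, 8.19 and 7.92 in SHS females, against 7.92, 7.58, 7.69 and 7.82 in air females. It read 8.17, 8.15, 8.15 and 8.11 in SHS males, against 7.81, 7.98, 7.97 and 8.13 in air males. The SHS females all lay above the air females, and in males only air male replicate 4 reached the SHS values.

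Cpox 1422493_at read 8.24, 8.31, 7.62 and 8.08 in SHS females, against 7.29, 7.83, 7.44 and 7.85 in air females. It read 7.90, 7.98, 7.90 and 7.85 in SHS males, against 7.59, 7.59, 7.57 and 7.79 in air males. The male groups did not overlap, and SHS female replicate 3 lay among the air females.

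Averaged over the sexes, Cpox rose on both probe sets, by 0.23 ± 0.06 on 1422492_at (adjusted p = 0.0187) and by 0.36 ± 0.10 on 1422493_at (SE, adjusted p = 0.0215). Within a sex neither was called. The differences were 0.29 (adjusted p = 0.0764) and 0.46 (adjusted p = 0.0827) in females, and 0.17 (adjusted p = 0.266) and 0.27 (adjusted p = 0.279) in males. With 1 array left out at a time, 1422492_at kept its call in 16 of 16 fits and 1422493_at in 15 of 16, with an adjusted p of 0.0501 without SHS female replicate 1. The third probe set, 1440747_at, was low and differed by -0.16 in females and by 0.23 in males, with no call.

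Ppox (chromosome 1, 171276991 to 171281193), protoporphyrinogen oxidase, follows Cpox. Ppox 1416618_at read 8.41, 8.46, 8.53 and 8.49 in SHS females, against 8.48, 8.72, 8.57 and 8.59 in air females, with overlapping groups and a difference of -0.12 (95% interval -0.26 to 0.02, adjusted p = 0.419). In males the difference was 0.01 (95% interval -0.13 to 0.15). The other probe sets of Ppox were low and gave no call.

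Fech (chromosome 18, 64456542 to 64489098), ferrochelatase, inserts iron into protoporphyrin as the last step. Fech 1449181_at read 9.60, 9.59, 9.41 and 9.47 in SHS males, against 10.00, 9.94, 9.87 and 9.88 in air males. Every SHS male lay below every air male. The probe set fell by 0.40 ± 0.08 in males (SE, adjusted p = 0.0068), to 75.6% of the air level on the linear scale, and the call held in 16 of 16 fits with 1 array left out, with adjusted p from 0.00326 to 0.0328.

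In females it read 9.33, 9.42, 9.30 and 9.57 after SHS, against 9.62, 9.57, 9.58 and 9.33 after air. The groups overlapped, with a difference of -0.12 ± 0.08 (adjusted p = 0.515). Averaged over the sexes it fell by 0.26 ± 0.06 (adjusted p = 0.0059). The difference between the sexes was 0.28, females minus males (adjusted p = 0.547), so a sex difference was not shown.

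The other Fech probe sets did not pass the test in males. Fech 1418698_a_at differed by -0.29 in males (adjusted p = 0.182) and by -0.10 in females (adjusted p = 0.766). Probe set 1418699_s_at read 10.27, 10.11, 10.18 and 10.57 in SHS males, against 10.35, 10.31, 10.58 and 10.35 in air males, with a difference of -0.11 (adjusted p = 0.650). The low probe set 1427696_at differed by 0.18 in males (adjusted p = 0.243). The call in males therefore rested on 1 of 4 probe sets of the gene, and it was the one of the 3 that were not low whose r with Alas2 was the lowest (0.37).

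**Figure D5:**
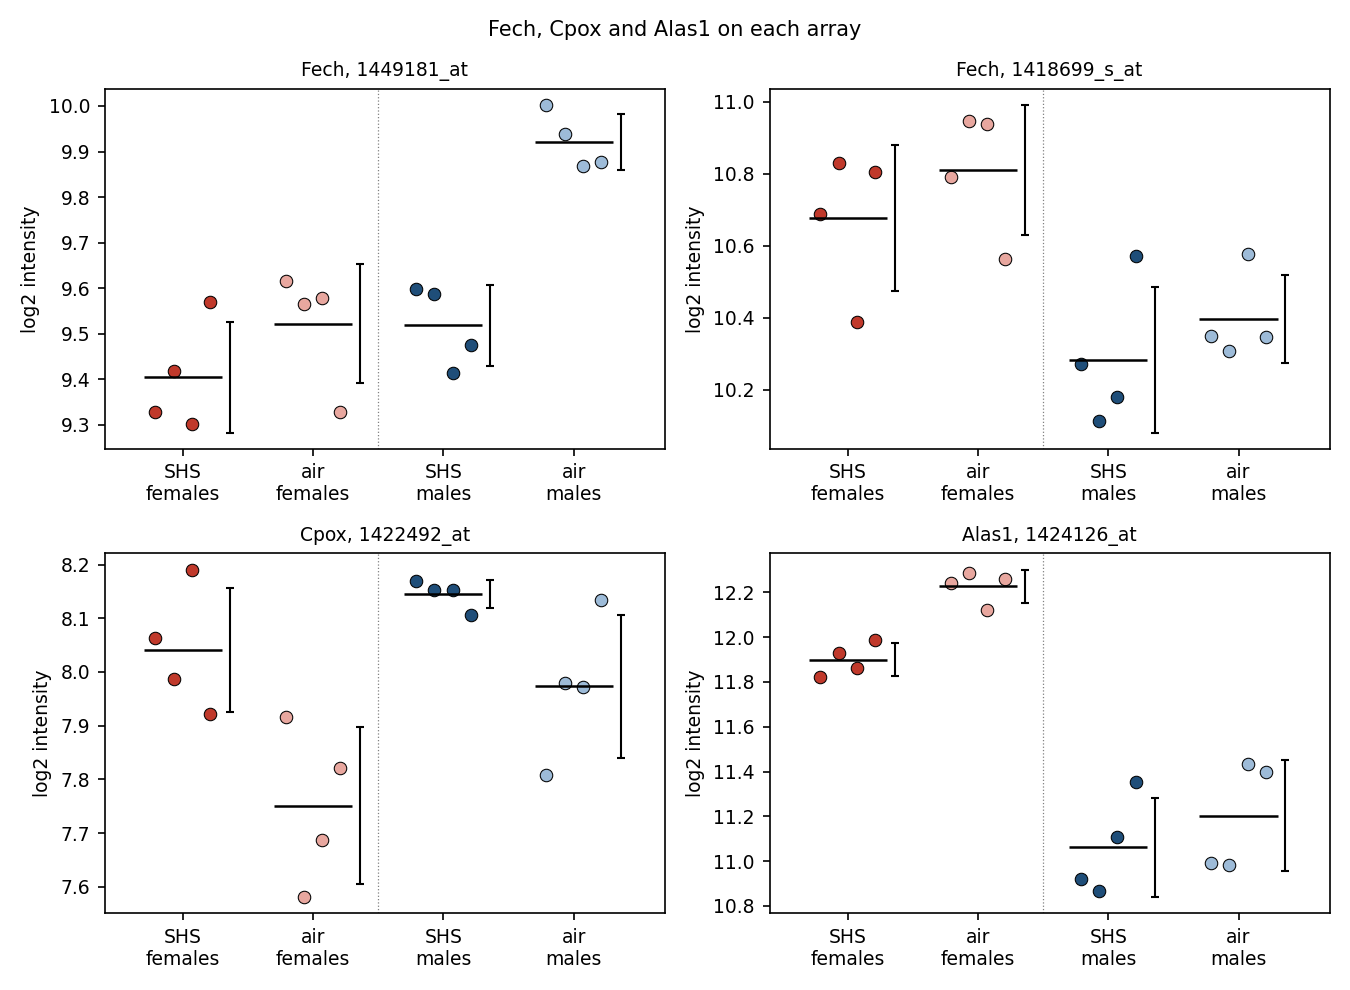
Log2 intensity of Fech 1449181_at, Fech 1418699_s_at, Cpox 1422492_at and Alas1 1424126_at on each array, with group means as lines and SDs as bars, n = 4 per group. SHS males lie below air males on Fech 1449181_at and overlap them on 1418699_s_at, and SHS females lie above air females for Cpox and below them for Alas1.

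Genes around the pathway were counted in 4 lists, each gene by 1 probe set. These lists and the cell marker lists were drawn up with earlier results of these data known. Their counts are set beside the background as a description. Of all probe sets, 2.36% were called higher and 0.517% lower in females, and 3.07% higher and 2.11% lower in males. Of 23 measured genes of heme transport and breakdown, 1 rose and 0 fell in females, and 5 rose and 1 fell in males. Cd163, the scavenger receptor for hemoglobin bound to haptoglobin, rose by 0.88 in females (adjusted p = 0.0112) and by 1.41 in males (adjusted p = 0.000392). Hmox1, the inducible heme oxygenase, read 9.73, 9.73, 8.61 and 8.82 in SHS males, against 8.55, 8.33, 8.14 and 8.49 in air males, without overlap. It rose by 0.85 in males (adjusted p = 0.033) and had a difference of 0.56 in females (adjusted p = 0.201). Slc25a38, the carrier of glycine into mitochondria for the first step of the pathway, rose by 0.30 in males (adjusted p = 0.00707), as did Tmem14c, a transporter of porphyrin into mitochondria, by 0.29 (adjusted p = 0.0227), and Tspo, a mitochondrial membrane protein that binds porphyrins, by 0.22 (adjusted p = 0.036). The heme-binding protein Hebp1 fell by 0.25 in males (adjusted p = 0.0279). The median difference of the list was 0.06 in females and 0.08 in males, against 0.0003 and 0.0084 over all genes.

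Of 23 measured genes of iron handling, 3 rose in females and 4 in males, and 0 fell in either sex. Tfrc, the transferrin receptor through which cells take up iron, read 11.53, 11.71, 11.58 and 11.31 in SHS females, against 10.80, 10.85, 10.81 and 10.97 in air females. The groups did not overlap in either sex, and Tfrc rose by 0.67 in females (adjusted p = 0.000318) and by 0.56 in males (adjusted p = 0.00104). Steap4, a metalloreductase, rose by 0.67 and 0.96 (adjusted p = 0.0399 and 0.00338), and the ferroxidase Cp rose by 0.51 and 0.68 (adjusted p = 0.0073 and 0.000733), in females and in males. Lcn2, which binds bacterial iron carriers, rose by 0.87 in males (adjusted p = 0.0029). The median difference of the list was 0.06 in females and 0.05 in males.

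Of 15 regulators of the pathway, 2 fell in females and 1 in males, and 0 rose. Nr1d2, a heme-binding nuclear receptor of the circadian clock, fell by 0.36 in females (adjusted p = 0.0387) and by 0.41 in males (adjusted p = 0.0136). Dbp, a clock output factor, read 10.20, 10.34, 9.91 and 10.47 in SHS females, against 11.05, 10.90, 11.06 and 10.92 in air females. It fell by 0.75 in females (adjusted p = 0.0074), while the difference in males was -0.36 (adjusted p = 0.166). No time of day for lung collection was given in the labels. The median difference of the list was -0.03 in females and -0.06 in males.

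Of 28 measured proteins that carry heme, 2 rose and 0 fell in females, and 5 rose and 2 fell in males. Tdo2, the heme enzyme tryptophan dioxygenase, rose by 0.85 in females (adjusted p = 0.0149) and by 0.93 in males (adjusted p = 0.00631), and the cytochrome c gene Cycs rose by 0.50 (adjusted p = 0.00561) and by 0.36 (adjusted p = 0.026). Cyp1b1, a cytochrome P450 induced by smoke components, rose by 0.66 in males (adjusted p = 0.00498), and had a difference of 0.37 in females (adjusted p = 0.134). Catalase, Cat, fell by 0.39 in males (adjusted p = 0.0238), and Cybb, the heme subunit of the phagocyte oxidase, fell by 0.58 in males (adjusted p = 0.00868). The median difference of the list was 0.11 in females and 0.10 in males.

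Markers of other cells were counted in the same way. Of all probe sets, 2.36% were called higher in females and 3.07% in males, and 0.517% and 2.11% were called lower. Proliferation markers rose for 8 of 9 measured genes in females and 8 of 9 in males, with a log2 summed level of 13.0 to 13.5 in SHS females, 12.6 to 12.7 in air females, 13.0 to 13.4 in SHS males and 12.5 to 12.7 in air males. Club cell markers fell for 3 of 8 in each sex, the same genes Scgb3a2, Ces1d and Fmo2, with a log2 summed level of 16.6 to 16.9 in SHS females, 16.9 to 17.2 in air females, 16.6 to 16.8 in SHS males and 16.8 to 16.9 in air males. No marker of alveolar macrophages was called among 9 in either sex by limma. At an unadjusted p under 0.05 there were 2 in females and 3 in males, against 16% and 20.2% of all probe sets. The part of these cells in the differences of the heme genes was not tested.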

How the data were processed

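Total RNA of 16 left lungs, 4 per group, was hybridized to Affymetrix mouse whole-genome arrays, per the labels. What the authors deposited were log2 intensities after their own normalization, with 1 row for a probe set. Their normalization method was not given in the sources used here. Only limma is named in the submitters' processing notes, with no step assigned to it. The log base was settled from the values (2.58 to 15.2). Raw scans, scan dates and slides were not analysed here.

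Of 45101 features, 64 array controls were left out. Of the remaining 45037, 34945 had 1 symbol, 932 several and 9160 none, and 34741 matched RefSeq genes of GRCm38.p6 by Entrez identifier. In lists, the probe set with the highest mean stood for its gene. Group means were fitted to all 16 arrays with limma 3.58.1 in R 4.3.3 (12 residual and 5.56 prior degrees of freedom), tested two-sided, with Benjamini-Hochberg adjustment within a comparison for all 45037 probe sets. Relations to red cell markers were tested with two-sided exact permutation in Python 3.11.15 with numpy 2.4.6, with ranks from scipy 1.17.1.

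Named were all members, the 5 genes most like Alad and Alas2, the Alad neighbours and called genes of the lists. From a list, up to 4 with large differences were taken, and not every called heme protein is named. Tspo, Hebp1, Cat and Cybb were added once their values had been seen. The alternative settings comprised quantile normalization, centring, a filter on low values, the replicate number as a block, array weights, a trended and robust prior, the arrays of 2 groups alone, the mean over a gene's probe sets, an adjusted p under 0.10, and each array left out. The members and lists were chosen with earlier results of these data known. The fit was tested on simulated data.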

Additional observations from a re-analysis of the deposited data

Results flagged for a closer look

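In 9 of 76 groups of 4 arrays, the highest or the lowest array stood apart from the other 3 by Dixon's criterion (gap over range above 0.829). Chance flags about 1 in 20 groups.

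For Alad 1424877_a_at the arrays were SHS male replicate 3, at 10.62 with the other 3 SHS males between 9.55 and 9.65, and air female replicate 1, at 9.77 with the other 3 air females between 10.63 and 10.75. For Alad 1457306_at it was SHS female replicate 2, at 7.40 with the other 3 between 7.58 and 7.61. For Alas2 they were SHS female replicate 3, at 8.58 with the others between 10.26 and 10.58, and SHS male replicate 4, at 9.50 with the others between 8.03 and 8.14.

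SHS male replicate 4 was also highest for Fech 1418698_a_at, at 9.28 with the others between 8.91 and 8.96, and for Ppox 1441862_at, at 5.77 with the others between 5.60 and 5.62. Air male replicate 3 was highest for Fech 1418699_s_at, at 10.58 with the others between 10.31 and 10.35. Air male replicate 4 was highest for Cpox 1422493_at, at 7.79 with the others between 7.57 and 7.59.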

How the results depend on the processing

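In females, 0 of 17 heme synthesis probe sets were called, against 1 without low probe sets, 1 with the replicate block, 2 at an adjusted p under 0.10, 4 with array weights and 0 to 1 with each array left out. In males, 1 of 19 was called, against 2 with only the arrays of the 2 groups, 3 without air female replicate 1 and SHS male replicate 3 (an alternative chosen after seeing the data and defined by Alad values, which added both Alad probe sets) and 1 to 2 with each array left out, the higher without SHS male replicate 3. Averaged over the sexes, 3 of 17 were called, against 5 at an adjusted p under 0.10, 6 with array weights and 2 to 5 with each array left out; Cpox 1422493_at was lost without those 2 arrays (adjusted p = 0.0725). Between the sexes the count was 0 in every one of the 16 fits with an array left out. Of 16 relations to red cell markers 2 were called, against 4 with hemoglobin alone, 4 with the markers that are not low (chosen after seeing the data) and 0 to 4 with each array left out, where the exact test had 7 arrays in that sex. The cause of these shifts was not tested. Over all probe sets, array weights gave 3985 calls in females, against 1294, 4398 in males, against 2332, and 7717 averaged, against 4652, and the arrays of the 2 groups alone gave 448 in females.

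Signs reversed for values with no call: Alas2 in females (0.03 without air female replicate 3 and 0.30 without SHS female replicate 3, in a range of -0.37 to 0.30 with each array left out), Uros in females (-0.0038 as the mean over its probe sets), and Ppox in males (-0.058 as the mean over its probe sets and -0.019 to 0.037 with each array left out, below 0 without air male replicate 4 and without SHS male replicate 2). For same-numbered arrays, the correlations of their deviations from group means ran from -0.16 to 0.29 in females and from 0.03 to 0.20 in males. What such arrays shared besides a number is not given in the labels. The replicate block added Alas1 1424126_at in females (adjusted p = 0.0386) to the calls.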

Other observations

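Among markers of the other cells a lung sample holds, Pf4, a chemokine stored in platelets, rose by 0.77 in females (adjusted p = 0.00185) and by 0.69 in males (adjusted p = 0.00302), as the only call among 7 measured platelet genes in each sex. Of 7 markers of alveolar type 2 cells, Abca3, a lipid transporter of surfactant bodies, fell by 0.23 in males (adjusted p = 0.0485), and none was called in females. Of 8 endothelial markers, the receptor gene Tek fell by 0.46 in females (adjusted p = 0.0356), and none was called in males. These calls are limma's, adjusted over all probe sets. The shares of all probe sets called higher were 2.36% in females and 3.07% in males, and those called lower 0.517% and 2.11%.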
